A study of Mus musculus with 6 samples.

Results

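The liver makes fatty acids from acetyl-CoA and joins them to glycerol as triglyceride, and 37 mouse genes of this route were followed through 7 days of NTBC withdrawal. The members form a list by function, drawn up with earlier results of these data known. It covers acetyl-CoA supply, synthesis of the chain, its elongation, desaturation and activation, assembly of triglyceride and the transcription factors of the route. All 37 were measured, out of 18193 genes with a probe set that matches a single gene. After withdrawal 17 members were lower and 7 were higher, and the steps did not move alike. All 4 members assigned to chain synthesis fell, led by Thrsp at 95.7-fold and Fasn at 5.91-fold, and Scd1 fell 11.0-fold. All 3 long-chain acyl-CoA synthetase (Acsl) genes among the members rose instead, Acsl5 by only 1.34-fold. Within the elongases Elovl3 fell 25.7-fold while Elovl7 rose 31.6-fold, and the lower readings behind both folds were dim.

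The study asked which liver pathways respond when NTBC stops acting in mice that cannot complete tyrosine breakdown. All mice were FRG males on a C57Bl/6J background, homozygous knockouts for Fah, Rag2 and Il2rg (Fah-/-, Rag2-/-, Il2rg-/-), and were 12 weeks old when liver was taken. They drank water with 16 mg/l NTBC and dextrose and ate a chow low in tyrosine and phenylalanine. In the FRG+NTBC group (3 mice) NTBC was never stopped, and in the FRG-7dNTBC group (3 mice) it was withheld for the last 7 days. NTBC, or nitisinone, blocks Hpd, an early enzyme of tyrosine breakdown, and so keeps the toxic products that build up without Fah from forming. Because Rag2 and Il2rg are lost in both groups, the livers come from mice that lack mature B, T and natural killer cells, and there was no group with intact Fah. RNA of whole liver tissue from each mouse was read on its own Affymetrix 430 2.0 array.

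In the liver, the acetyl-CoA for fat synthesis comes from citrate and acetate, acetyl-CoA carboxylase turns it into malonyl-CoA, and fatty acid synthase builds palmitate from these. Elongases and desaturases then lengthen the chain and add double bonds, acyl-CoA synthetases activate it, and acyltransferases attach it to glycerol until Dgat enzymes complete the triglyceride. SREBP-1c, made from Srebf1, and ChREBP, made from Mlxipl, are known as the main activators of these genes after feeding, in response to insulin and to glucose.

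Each value below is the deposited linear intensity of a probe set, and a gene is represented by its brightest probe set unless another is named. Fold changes are given as log2 of FRG-7dNTBC minus FRG+NTBC with the standard error (SE) from limma, and a gene counts as called, or as having risen or fallen, at a Benjamini-Hochberg adjusted p under 0.05 over all 45037 probe sets. Intensities of different probe sets are not on a common scale, so levels are compared between mice and not between genes.

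The arrays were of like overall brightness, with medians of 35.3 to 36.5 in the FRG+NTBC mice and 33.1 to 34.3 in the FRG-7dNTBC mice, and correlations of 0.988 to 0.993 within the first group, 0.98 to 0.99 within the second and 0.93 to 0.955 between them. Liver identity was checked with 10 hepatocyte markers, whose summed intensity was 150977 to 155957 with NTBC and 126894 to 141145 without it. Of these 10, 4 were lower (Cyp2e1, Ass1, Cps1 and Hnf4a), where 12.7% of all genes were lower, and 0 were higher. Albumin differed by 0.08 on the log2 scale, and the sum rests largely on bright markers such as albumin and Ttr. The Ass1 probe set was dim after withdrawal, at 20.1, 27.3 and 16.1, and only 1 of 4 Hnf4a probe sets was called lower. The Fah probe set still gave a signal and was lower after withdrawal (log2 change -1.07), although both groups carry the knockout, so it does not check the genotype. Rag2, disrupted in every mouse, read 16.4 to 22.5, and its highest reading is used here as a mark of a dim signal. In whole liver, fewer cells of a type and less RNA per cell cannot be told apart. Markers of other cells that moved between the groups are given beside the genes they touch.

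Among the 37 members the 17 lower genes are 45.9%, where 12.7% of all genes were lower, and the 7 higher genes are 18.9%, where 17.4% of all genes were higher. Because the list was drawn up with earlier results of these data known, these shares describe it and are not an independent test. With a change of at least 2-fold required as well, 13 members were lower, against 4.95% of all genes, and 5 were higher, against 8.94% of all genes. The median log2 change over the members was -0.32, and over all genes it was -0.05. In 25 of the 37 members the groups did not overlap, which was also the case for 46.2% of all genes. No called member had overlapping groups, and Dgat1 was the 1 uncalled member whose groups were apart.

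**Figure D1:**
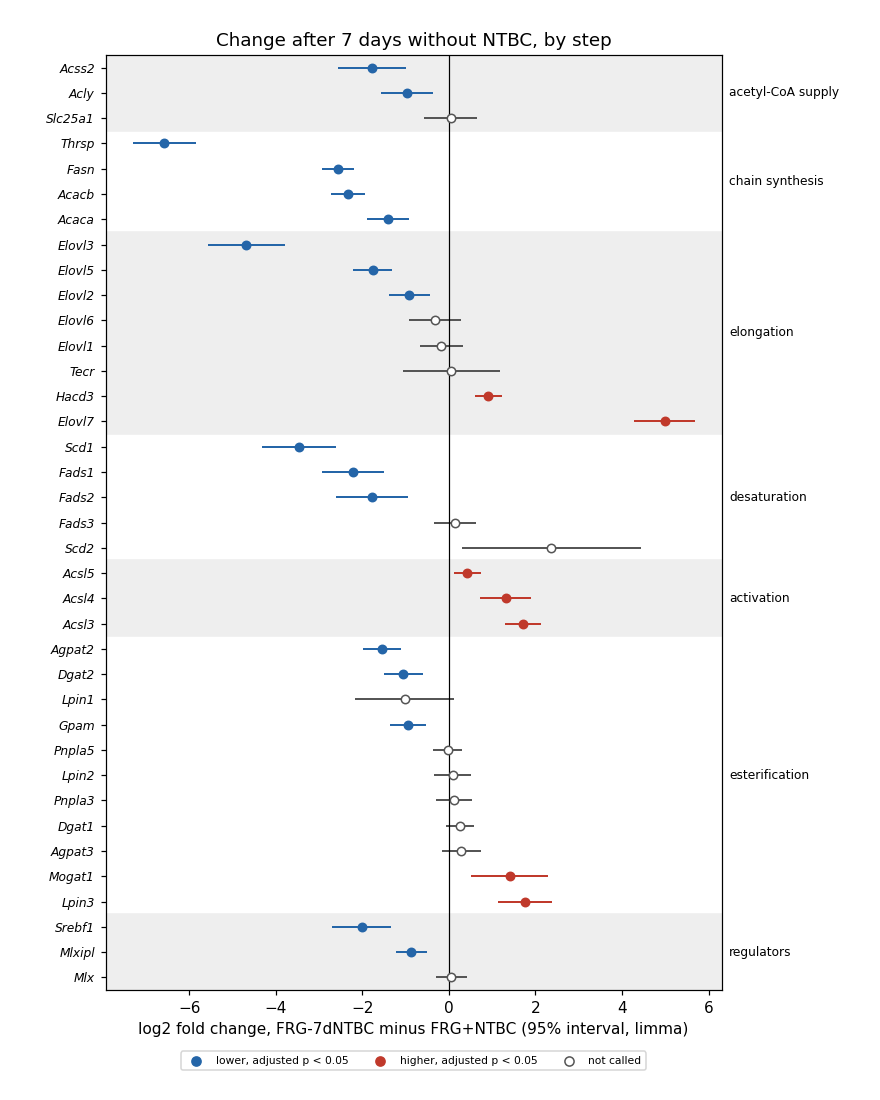
Change of each of the 37 genes after 7 days without NTBC, grouped by step of the route. The horizontal axis is the log2 change from FRG+NTBC to FRG-7dNTBC, 3 mice each, points are limma estimates with unadjusted 95% intervals, and filled points are called at an adjusted p under 0.05. All 4 chain synthesis genes lie left of 0 and all 3 activation genes lie right of it, and elongation spans from -4.68 for Elovl3 to 4.98 for Elovl7.

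The stretches of DNA just before the start of transcription are shown first for 3 of the genes that moved most and for Mlxipl, since SREBP, ChREBP and NF-Y act through short motifs there. The RefSeq windows (GRCm38.p6) run from 250 bases before to 50 bases after each start, and 31 of the 37 members had at least 1. They were searched on both strands for TCACNCCAC (a sterol response element), CACGTG (an E-box), CCAAT (the NF-Y box) and GGGCGG (a GC box). Capitals mark every match to any of these 4 in the upstream bases, read 5′ to 3′ on the strand of the gene.

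Thrsp, minus strand, chr7:97417551-97417800: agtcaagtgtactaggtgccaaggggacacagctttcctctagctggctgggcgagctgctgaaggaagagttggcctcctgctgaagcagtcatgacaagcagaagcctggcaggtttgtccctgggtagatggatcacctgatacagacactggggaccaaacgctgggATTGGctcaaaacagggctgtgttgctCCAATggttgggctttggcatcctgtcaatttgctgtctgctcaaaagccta
Fasn, minus strand, chr11:120824548-120824797: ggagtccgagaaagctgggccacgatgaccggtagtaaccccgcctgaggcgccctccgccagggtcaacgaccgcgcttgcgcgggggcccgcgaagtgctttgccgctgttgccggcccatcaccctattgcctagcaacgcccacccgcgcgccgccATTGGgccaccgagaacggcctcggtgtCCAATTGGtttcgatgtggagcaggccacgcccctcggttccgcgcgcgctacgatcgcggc
Elovl7, plus strand, chr13:108214154-108214403: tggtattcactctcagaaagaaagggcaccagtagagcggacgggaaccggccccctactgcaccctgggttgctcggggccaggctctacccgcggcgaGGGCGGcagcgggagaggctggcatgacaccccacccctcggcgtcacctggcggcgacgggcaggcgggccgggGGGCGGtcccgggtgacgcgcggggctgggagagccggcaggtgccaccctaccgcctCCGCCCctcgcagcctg
Mlxipl, second start, plus strand, chr5:135106695-135106814: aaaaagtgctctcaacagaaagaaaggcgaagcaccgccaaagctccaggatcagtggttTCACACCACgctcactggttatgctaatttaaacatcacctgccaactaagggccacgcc

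The Thrsp stretch holds 2 NF-Y boxes, and the Fasn stretch holds 3, a pair of which overlap as CCAATTGG. Elovl7, which rose, has 0 NF-Y boxes and 3 GC boxes in its stretch. NF-Y boxes were found in 9 of the 13 lower members with a window, in 4 of the 7 higher members and in 8 of the 11 uncalled ones. That is 21 of 31 members, where 41.1% of all 27025 genes with a window have one. Across all 32851 windows 37.4% hold an NF-Y box, and 55.0% of the 40 member windows do. GC boxes were in 35.7% of all windows and in 57.5% of the member windows, or in 38.2% of all genes and in 20 of the 31 members. The E-box was in 7.15% of all windows (8.09% of genes) and in 8 of the 40 member windows, those of Elovl5 and Mlxipl (lower), Hacd3 and Lpin3 (higher) and Slc25a1, Mlx, Lpin2 and Pnpla5 (not called). The sterol response element occurred in 1.24% of all windows and in 1 member window, at the second start of Mlxipl, where it begins 136 bases before that start. These are matches of letters within the windows and not measured binding. No window was at hand for Scd1, Scd2, Elovl3, Fads1, Dgat1 and Dgat2.

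Of the 3 genes of acetyl-CoA supply, 2 fell. Acss2, the cytosolic enzyme that makes acetyl-CoA from acetate, read 2837, 1992 and 1541 in the FRG+NTBC mice and 760.1, 365 and 776 in the FRG-7dNTBC mice. Every withdrawn mouse lay below every treated mouse, and the log2 change was -1.78 (SE 0.33, adjusted p = 0.00531). Another Acss2 probe set fell too (-1.20), the dimmest one was not called (0.29), and the mean over the 3 was -0.90 (adjusted p = 0.00811). Acly, which splits citrate into acetyl-CoA and oxaloacetate, read 4153, 2487 and 3083 with NTBC and 1687, 1201 and 2106 without it. Its groups were apart as well (log2 change -0.97, SE 0.25, adjusted p = 0.0228), but the call was lost without FRG+NTBC replicate 1 (adjusted p = 0.0742), FRG+NTBC replicate 3 (0.0614) or FRG-7dNTBC replicate 1 (0.0636). With probe sets of shared sequence left out, another probe set stood for Acly, at -0.22 (adjusted p = 0.327). Slc25a1, the mitochondrial citrate carrier, had overlapping groups and a change of 0.05, with a 95% interval of -0.54 to 0.64.

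Chain synthesis was the one step of the route in which all members were lower, at a median log2 change of -2.45. Of 6 measured genes of this step outside the members, 2 were lower (33.3%, against 12.7% of all genes). None of the 6 was higher, 4 were not called, and their median was -0.42. Fasn, the synthase that builds palmitate, read 2647, 1992 and 1885 in the FRG+NTBC mice and 377, 365 and 349.7 in the FRG-7dNTBC mice. The withdrawn mice lay close together, with a mean of 364 ± 13.9 (SD, n = 3) against 2174 ± 413 with NTBC, and the log2 change was -2.56 (SE 0.15, adjusted p = 5.08e-05). Acaca, the acetyl-CoA carboxylase that makes malonyl-CoA for synthesis in the cytosol, read 1024, 765 and 724 before and 343, 244 and 359.5 after withdrawal (log2 change -1.41, SE 0.20, adjusted p = 0.00149). Acacb, the carboxylase at the mitochondrial membrane whose malonyl-CoA restrains fatty acid import, went from 523, 495 and 404 to 106, 96.3 and 80.5 (log2 change -2.33, SE 0.16, adjusted p = 7.8e-05). The highest withdrawn mouse was far under the lowest treated mouse for each of these 3 genes.

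Thrsp, also called Spot 14, is a small nuclear and cytosolic protein tied to lipid synthesis and a known target of thyroid hormone, SREBP-1c and ChREBP. It had the largest change of the 37 members in either direction. Its intensity was 9608, 8079 and 9542 in the FRG+NTBC mice and 151, 58.1 and 96.3 in the FRG-7dNTBC mice. The log2 change was -6.58 (SE 0.31, adjusted p = 2.14e-05), and all 3 Thrsp probe sets fell, the other 2 with log2 changes of -5.56 and -1.68. Averaged over its probe sets the change was -4.61. For Acaca and Acacb a second, dim probe set differed by 0.20 and -0.00 and was not called, so that averages over probe sets came to -0.61 and -1.17.

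**Figure D2:**
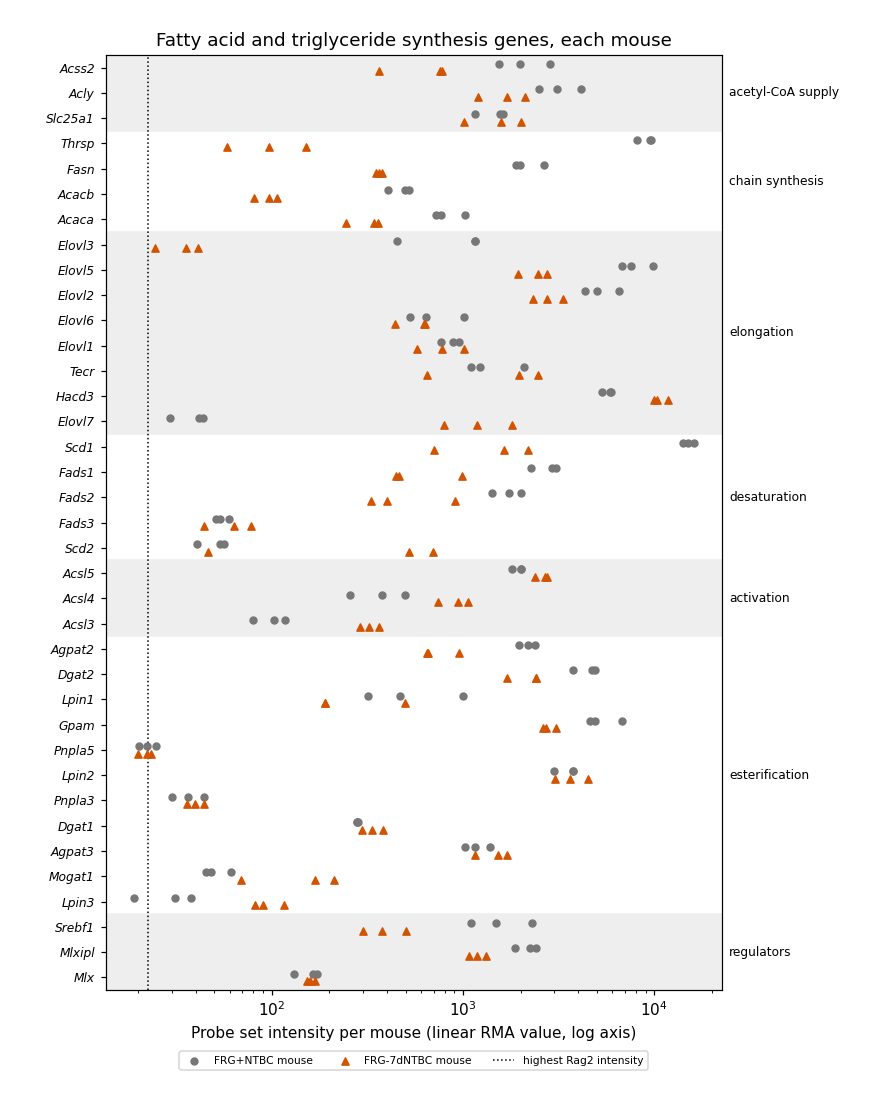
Intensity of the brightest probe set of each of the 37 genes in each mouse, by step of the route. The horizontal axis is the linear intensity on a log axis, gray circles are the 3 FRG+NTBC mice, orange triangles the 3 FRG-7dNTBC mice, and the dotted line is the highest Rag2 reading, 22.5. Thrsp, Fasn, Elovl3 and Scd1 show wide gaps with the withdrawn mice to the left, and Elovl7 shows one with the withdrawn mice to the right.

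The 8 elongation genes moved both ways, with 3 lower (37.5%, against 12.7% of all genes), 2 higher (25.0%, against 17.4%) and 3 not called. Each elongation cycle starts with an Elovl enzyme, which sets the chain that is lengthened, and ends with a dehydratase of the Hacd family and the reductase Tecr. Of the 6 Elovl genes, 3 fell, 1 rose and 2 were not called.

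Elovl3, which makes saturated and monounsaturated very long chains, read 449, 1160.1 and 1160.1 with NTBC and 35.5, 41.1 and 24.4 without it. Even the low treated mouse, FRG+NTBC replicate 1, was far above every withdrawn mouse, and the log2 change was -4.68 (SE 0.38, adjusted p = 0.000145). The withdrawn readings were not far above the highest Rag2 reading of 22.5, so the size of the fall depends on dim values. Elovl5, which lengthens polyunsaturated chains, read 6794, 9878 and 7591 before and 1938, 2452 and 2740.1 after withdrawal, a change of -1.76 (SE 0.19, adjusted p = 0.000457). Elovl2, which acts on the longer polyunsaturated chains on the way to docosahexaenoic acid, went from 4359.7, 6562 and 5043 to 2320.2, 3327 and 2759, a change of -0.92 (SE 0.20, adjusted p = 0.00978). The groups were apart for both genes.

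Elovl7, a very long chain elongase that is treated by the study as a marker of liver progenitor and biliary cells, read 29.4, 41.6 and 43.7 in the FRG+NTBC mice and 1184, 798 and 1795 in the FRG-7dNTBC mice. The log2 change was 4.98 (SE 0.29, adjusted p = 4.56e-05), and 6 of its 6 probe sets were called higher. With NTBC the other 5 were at or below the highest Rag2 reading in 2 or 3 of the 3 mice, so the size of their change, 2.38 to 5.18 as fitted, depends on a reading near background. The brightest one was above that reading with NTBC but still dim, so the size of its change is limited as well. Elovl7 had the largest rise among the members. Beside it, the summed intensity of 6 cholangiocyte markers was 248.6 to 290.1 with NTBC and 393.8 to 490.3 without it, with 2 of the 6 higher (Cldn4 and Prom1) and 0 lower. The keratins of bile duct cells, Krt19 (log2 change -0.27) and Krt7 (-0.45), and Sox9 (0.65) were not called. Epcam was not called at its brightest probe set (-0.26), but its other probe set was called higher (0.56). The higher sum of brightest probe sets thus rests mainly on Cldn4 and Prom1. By RT-qPCR the paper reported significant increases of Elovl7 itself and of the markers Atf3, Cyr61, Ddr1 and Glis3, and an increase of Epcam. It reported no significant difference in Krt19, Prom1 or Cd24a, and its array increase of Hspa1a was not found again. The part of those cells in the Elovl7 result was not tested.

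Elovl6, the elongase that turns palmitate into stearate and a known SREBP-1c target, was not called at its brightest probe set, with 1009.9, 530.1 and 639 before and 626, 443 and 630.4 after withdrawal. The groups overlapped, and the change of -0.32 had a 95% interval of -0.91 to 0.26. With single mice left out it ranged from -0.52 (without FRG+NTBC replicate 2) to -0.06 (without FRG+NTBC replicate 1, adjusted p = 0.875), and without FRG-7dNTBC replicate 2 it was -0.16. A dimmer Elovl6 probe set did fall, from 95, 134 and 47.2 to 24.6, 19.8 and 25.8 (log2 change -1.86, adjusted p = 0.00517), and the mean over the Elovl6 probe sets was also called, at -0.99 (adjusted p = 0.0174). Elovl1, the ubiquitous very long chain elongase, differed by -0.17 (interval -0.65 to 0.31). Hacd3, a dehydratase of the cycle, rose from 5914, 5833 and 5330.3 to 10369, 9947 and 11747 (log2 change 0.91, SE 0.13, adjusted p = 0.00137), and its other 2 probe sets rose too, by 1.34 and 3.03. Tecr was scattered among the withdrawn mice, at 1951, 2452 and 648, and its change of 0.05 had an interval of -1.05 to 1.15.

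In desaturation 3 of 5 genes fell. Scd1, the stearoyl-CoA desaturase that makes most of the oleate of mouse liver, read 14067, 16047 and 14972 with NTBC and 1641, 704 and 2179.8 without it. The log2 change was -3.46 (SE 0.36, adjusted p = 0.000436), and its second probe set fell by 2.17. FRG-7dNTBC replicate 2 was the lowest of the withdrawn mice.

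Fads1 and Fads2, the delta-5 and delta-6 desaturases of polyunsaturated fatty acids, lie next to each other and to Fads3 on chromosome 19. Fads1 read 2272, 3061 and 2916 before and 461, 989 and 446 after withdrawal (log2 change -2.21, SE 0.30, adjusted p = 0.00131). Fads2 read 1409, 2006 and 1734 before and 399, 910.2 and 331 after (log2 change -1.78, SE 0.35, adjusted p = 0.007). At these probe sets FRG-7dNTBC replicate 2 was the highest of the withdrawn mice and still below every treated mouse. A further probe set of each gene fell, but the remaining one of Fads2 was not called (-0.59, adjusted p = 0.321). It read 771, 1314 and 996 with NTBC and 576, 1296 and 399 without it, with replicate 2 among the treated mice. Fads3, their neighbor with a less settled role, was dim and differed by 0.14 (interval -0.33 to 0.61).

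Scd2, the desaturase isoform known best from brain and from the liver before weaning, lies close to Scd1 with 1 protein-coding gene between them, and its values did not follow those of Scd1. It read 53.5, 40.8 and 56.1 in the FRG+NTBC mice and 519, 46.2 and 695 in the FRG-7dNTBC mice. FRG-7dNTBC replicates 1 and 3 were far above the treated mice, and replicate 2 lay among them. The change of 2.36 (SE 0.89) was not called (adjusted p = 0.0845). Without FRG-7dNTBC replicate 2 it was 3.60 (adjusted p = 3.96e-05), and without replicate 3 it was 1.64. A second probe set was called higher, at 1.37 (adjusted p = 0.038), but was at or below the highest Rag2 reading on 4 of the 6 arrays. In the same replicate 2 the cholangiocyte and progenitor marker Prom1 read 47.8, against 153 and 164 in the other withdrawn mice and 39.1, 29 and 26.7 with NTBC. The other called cholangiocyte marker, Cldn4, was instead highest in replicate 2, at 195 against 44.9 and 102. Every macrophage marker but Cd68 was lowest there among the withdrawn mice. Csf1r, not called between the groups, read 530 against 1370 and 1978, and Cd68 read 125 against 154 and 107. All 6 stellate cell markers were lowest there too, among them Reln at 385 against 798 and 1160. The part of these cells in the Scd2 values was not tested.

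**Figure D3:**
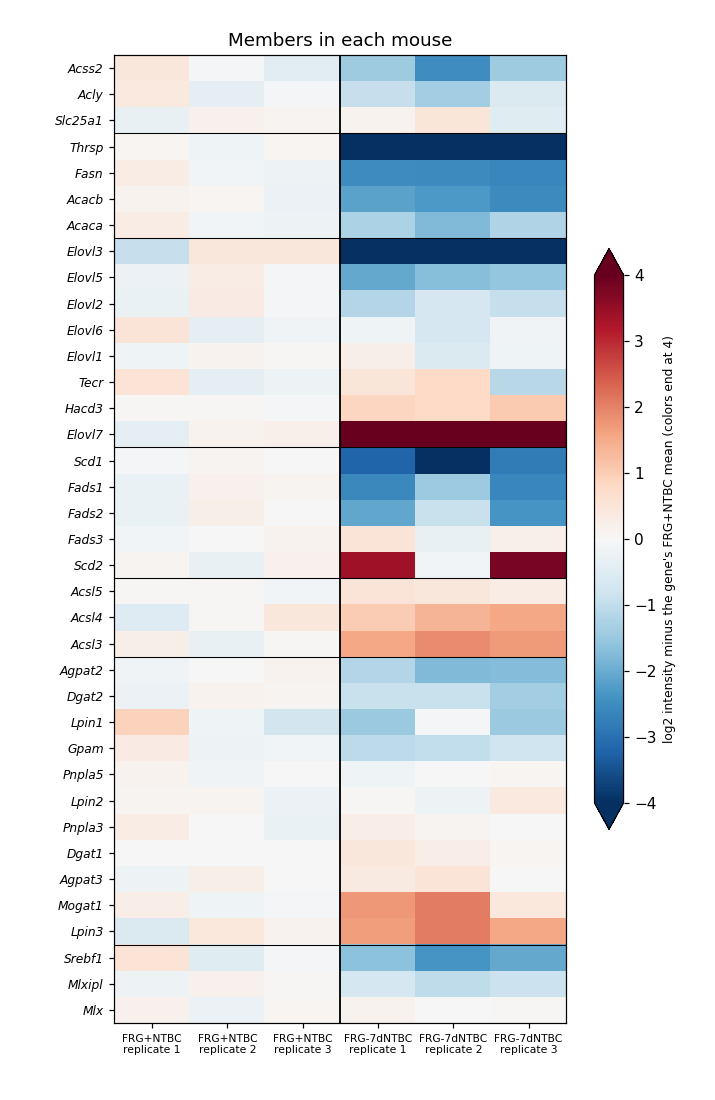
Each gene in each mouse as log2 intensity minus the mean of that gene over the FRG+NTBC mice, with blue for lower and red for higher values and colors ending at 4 on either side. Rows are the 37 genes by step, columns the 6 mice. FRG-7dNTBC replicate 2 stands apart from the other withdrawn mice in Scd2 and Lpin1.

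The 3 long-chain acyl-CoA synthetase (Acsl) genes among the members all rose, at a median log2 change of 1.31. Of 2 activation genes listed outside the members, 1 was measured. This was Acsl6, which was not called (-0.01) and was at or below the highest Rag2 reading on all 6 arrays. Acsl1 is not among the genes read here, so the step is not covered in full. These enzymes attach coenzyme A to a free fatty acid before it can be esterified or burned. Acsl3, which is found on lipid droplets and the endoplasmic reticulum, read 117, 79.3 and 103 with NTBC and 290.0, 362 and 322 without it (log2 change 1.72, SE 0.17, adjusted p = 0.000357). Acsl4, which prefers arachidonate, read 256, 377 and 498 before and 739, 936 and 1060.1 after withdrawal (log2 change 1.31, SE 0.25, adjusted p = 0.00605), and its other 2 probe sets rose by 2.04 and 3.13. Both genes had every withdrawn mouse above every treated mouse. Acsl5, an abundant liver form, went from 2006, 2006 and 1795 to 2759, 2665 and 2369. Its change of 0.42 (SE 0.12, adjusted p = 0.0375) was small, and it passed in only 5 of 15 other settings.

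Among the 11 members of glycerolipid assembly, 3 fell (27.3%, against 12.7% of all genes) and 2 rose (18.2%, against 17.4% of all genes). The other 6 were not called, and the median log2 change of the step was 0.08. The lower genes were 1 each of the first, second and last acylation. Gpam, the mitochondrial glycerol-3-phosphate acyltransferase of the first step, read 6747, 4608 and 4905 with NTBC and 2610.3, 2702 and 3061 without it (log2 change -0.94, SE 0.17, adjusted p = 0.00476). Agpat2, which adds the second fatty acid, read 1965, 2179.8 and 2369 before and 955, 644 and 657 after withdrawal (log2 change -1.55, SE 0.18, adjusted p = 0.000634). Dgat2, which adds the last one and works mainly on newly made fatty acids, went from 3769, 4871 and 4738 to 2402, 2402 and 1687 (log2 change -1.05, SE 0.18, adjusted p = 0.00388). All 3 genes had groups that did not overlap. Gpam and Dgat2 each have another, dimmer probe set that was not called (0.42 and -0.02), and averaged over probe sets their changes were -0.26 (adjusted p = 0.211) and -0.54 (adjusted p = 0.233), no longer called.

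The 2 higher genes of assembly were dim with NTBC. Lpin3, a phosphatidate phosphatase of the lipin family, read 18.9, 37.5 and 31.1 in the FRG+NTBC mice and 89.9, 115 and 81.6 in the FRG-7dNTBC mice, and 1 of these arrays was at or below the highest Rag2 reading. Its log2 change was 1.75 (SE 0.26, adjusted p = 0.00184). Mogat1, a monoacylglycerol acyltransferase known to rise in fatty liver, read 61, 44.9 and 48.2 before and 168, 212 and 68.6 after withdrawal. FRG-7dNTBC replicate 3 was only just above the treated mice, and the change of 1.40 (SE 0.38, adjusted p = 0.027) held in 9 of 15 other settings. It was lost without any single mouse other than FRG-7dNTBC replicate 3, with adjusted p from 0.054 to 0.0977. Mogat1 lies next to Acsl3 on chromosome 1.

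The other lipins were not called. Lpin1, a lipin that also acts as a coactivator of fatty acid oxidation, read 1003, 468 and 319.6 with NTBC and 189, 498 and 190.0 without it, with FRG-7dNTBC replicate 2 among the treated mice. Its change of -1.02 had an interval of -2.15 to 0.10, and it rested on single mice. Without FRG-7dNTBC replicate 2 it was -1.49 (adjusted p = 0.0329), and without FRG+NTBC replicate 1 it was -0.57 (adjusted p = 0.423). A second Lpin1 probe set was called lower, at -1.47 (adjusted p = 0.0407). Lpin2, the lipin most abundant in liver, differed by 0.08 (interval -0.33 to 0.49) and was the only member with probe sets called in both directions, at 1.11 and -1.50.

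Dgat1, the other enzyme of the last step, read 278, 278 and 282 before and 380.0, 335 and 294 after withdrawal, so that the groups were apart but the change of 0.26 was not called (interval -0.05 to 0.57, adjusted p = 0.187). Agpat3 differed by 0.29 (interval -0.14 to 0.72). Pnpla3, a lipid droplet protein whose human counterpart is known for a fatty liver variant, differed by 0.12 (interval -0.27 to 0.51). Pnpla5, its neighbor on chromosome 15, differed by -0.03 (interval -0.34 to 0.27) and was at or below the highest Rag2 reading on 4 of 6 arrays, too dim for a level to be read.

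Of the 3 transcription factors among the members, 2 fell. Srebf1 encodes SREBP-1, which is held in the endoplasmic reticulum until Scap carries it to the proteases that release it. It read 2288, 1098 and 1489 in the FRG+NTBC mice and 501, 300.2 and 377 in the FRG-7dNTBC mice (log2 change -2.01, SE 0.29, adjusted p = 0.00157). The array does not separate the SREBP-1a and SREBP-1c forms here, since Srebf1 has 1 probe set. Mlxipl, which encodes the glucose-responsive factor ChREBP, read 1859, 2419 and 2226 before and 1314, 1067 and 1176 after withdrawal (log2 change -0.87, SE 0.15, adjusted p = 0.00368). Both genes had groups that were apart. Mlx, the partner with which ChREBP binds DNA, differed by 0.06, with an interval of -0.27 to 0.38.

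Around these factors, the 12 measured regulators outside the members held 4 lower genes (33.3%, against 12.7% of all genes). Another 2 were higher (16.7%, against 17.4% of all genes). The inhibitory Insig pair moved in opposite directions. Insig1, an endoplasmic reticulum anchor of Scap that is itself a target of SREBP, read 3327, 2436 and 2759 with NTBC and 976, 1009.9 and 1209 without it (log2 change -1.41, SE 0.16, adjusted p = 0.000562). Insig2, the second anchor, read 300.2, 949 and 671 before and 2320.2, 2998 and 2419 after withdrawal (log2 change 2.15, SE 0.37, adjusted p = 0.0039), and 3 of its 3 probe sets rose. Ppargc1b, a coactivator known to work with SREBP-1c, fell from 969, 1252 and 904 to 302, 162 and 228 (log2 change -2.21, SE 0.24, adjusted p = 0.00046).

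Nr1h3, which encodes the oxysterol receptor LXR alpha, an activator of Srebf1 transcription, fell, with a log2 change of -1.01 (adjusted p = 0.0169). Its 3 withdrawn mice, at 185, 177 and 117, lay below the treated mice at 232, 349.7 and 383. Scap (-0.24, interval -0.84 to 0.37) and Srebf2, the SREBP of cholesterol synthesis (-0.26, interval -0.60 to 0.08), were not called.

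**Figure D4:**
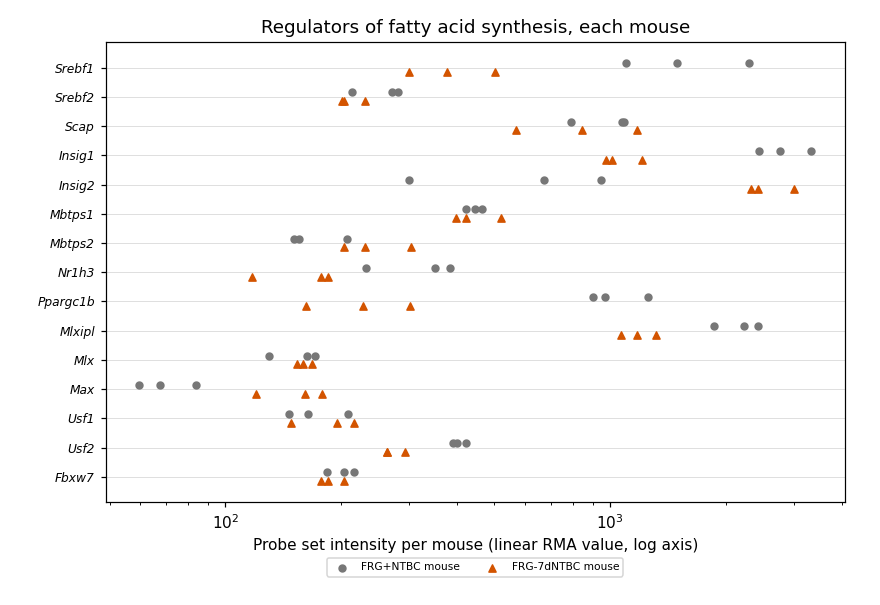
Intensity of the regulators of fatty acid synthesis in each mouse, members and other regulators together. The horizontal axis is the linear intensity on a log axis, gray circles are the 3 FRG+NTBC mice and orange triangles the 3 FRG-7dNTBC mice. Srebf1, Insig1, Ppargc1b and Mlxipl lie lower after withdrawal without overlap, Insig2 lies higher, and Scap and Mlx overlap.

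Over the whole list of other genes of the route, 39 of 42 were measured, with a median log2 change of -0.09. Of these 9 were higher (23.1%, against 17.4% of all genes), 8 lower (20.5%, against 12.7%) and 22 not called. The largest falls were those of Ppargc1b, Insig1 and Aacs, the cytosolic enzyme that makes acetoacetyl-CoA from acetoacetate, whose change was -1.13 (adjusted p = 0.00203). The largest rises were those of Agpat5, Insig2 and Gpat3. Agpat5, an acyltransferase found in mitochondria, went from 206, 168 and 191 to 982, 1379.6 and 1031 (log2 change 2.57, SE 0.17, adjusted p = 6.27e-05), although only 1 of its 3 probe sets rose. Gpat3, a glycerol-3-phosphate acyltransferase of the endoplasmic reticulum, went from 265, 259.6 and 329 to 765, 820.3 and 898 (log2 change 1.55, SE 0.14, adjusted p = 0.000239).

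In assembly, 4 of the 9 outside genes rose (Agpat5, Gpat3, Cds2 and Mogat2) and 0 fell. These shares are 44.4% and 0.0%, where 17.4% of all genes were higher and 12.7% lower. They stand beside the 3 lower and 2 higher members of that step. Gpam and Gpat3 encode enzymes of the same first acylation, and Agpat2 and Agpat5 are assigned to the same second one. In each of these picked pairs 1 gene fell and the other rose. The other Gpat and Agpat genes read here were not called: Gpat2 (-0.44), Gpat4 (0.25), Agpat1 (-0.33), Agpat3 (0.29) and Agpat4 (-0.09). Averaged over probe sets Gpam was not called either (-0.26), and Agpat5 rose at only 1 of its 3 probe sets. Me1, the malic enzyme that supplies NADPH for fatty acid synthesis and also a known NRF2 target, was higher, at 3421, 3327 and 3327 before and 4153, 5113 and 4837 after withdrawal (log2 change 0.48, SE 0.13, adjusted p = 0.0246).

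The 85 probe sets of the members were counted as well. Probe sets of 1 gene are not independent, and Elovl7 alone gave 6 of the higher ones. Of these 29 were lower, against 13.9% of all probe sets, 19 were higher, against 14.0% of all probe sets, and 37 were not called. Of the 24 called members, 16 had every probe set called in the same direction, 7 of them with more than 1 probe set. A further 4 members that were not called at the brightest probe set had another one that was, namely Elovl6, Scd2, Lpin1 and Lpin2.

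**Figure D5:**
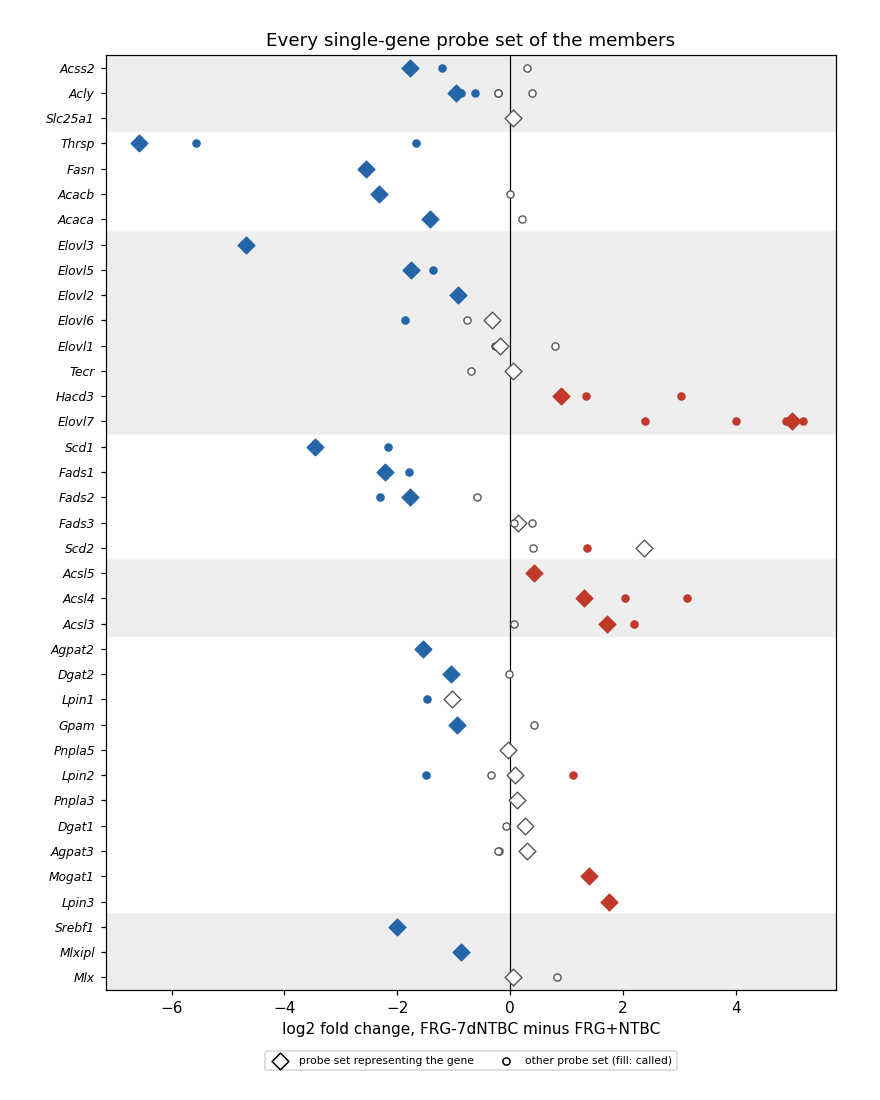
Log2 change from FRG+NTBC to FRG-7dNTBC of all 85 single-gene probe sets of the 37 genes. Diamonds are the probe sets that represent the genes, circles the others, and filled symbols are called at an adjusted p under 0.05, in blue when lower and in red when higher. All 6 Elovl7 and all 3 Thrsp probe sets lie on 1 side, and Lpin2 has called probe sets on both.

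The median SD of the members between mice of a group was 0.26 on the log2 scale with NTBC and 0.29 without it, where all genes had 0.17 and 0.18. Members and all genes were not matched for brightness, and its part in this difference was not tested. The SD was larger after withdrawal in 22 of the 37 members, and the share of all genes for which this held was not counted.

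Related lipid pathways moved by different counts. Over all genes 12.7% were lower and 17.4% higher. Of 17 measured genes of cholesterol synthesis, 10 were lower (58.8%) and 1 was higher (5.88%), the squalene epoxidase gene Sqle (log2 change 1.03), at a median of -0.64. Of 20 measured genes of fatty acid oxidation, 6 were lower and 6 higher (30.0% each) at a median of 0.20. Among them were Ppara, the receptor that drives this pathway (-2.30), and Ehhadh, a peroxisomal oxidation enzyme (2.09). Whether the counts of these lists differ from those of the members was not tested.

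Markers of other cells were read beside the members. Adipocytes also express many of these genes, and the summed intensity of 6 measured adipocyte markers was 204.7 to 290.3 with NTBC and 807 to 1375 without it, with 3 of 6 higher (Cidec, Fabp4 and Pparg, all of which liver cells can also express). The defining adipocyte markers Adipoq and Lep were at or below the highest Rag2 reading on all arrays. Summed macrophage markers were 1705 to 2574 with NTBC and 1983 to 5086 without it (3 of 7 higher), endothelial markers 1052 to 1570.0 and 1672 to 2050.1 (2 of 5 higher), stellate cell markers 2319 to 4001 and 3136 to 4902 (1 of 6 higher), and neutrophil markers 141 to 195 and 138 to 229 (0 of 4 called). Of all genes, 17.4% were higher and 12.7% lower, and these marker lists are short. The part of these cell types, and of the lower hepatocyte markers, in the changes of the members was not tested.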

How the data were processed

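Whole liver RNA of 3 FRG+NTBC and 3 FRG-7dNTBC mice was measured, with a separate Affymetrix array for every mouse. The deposited intensity values came from the authors' Robust Multiarray Analysis, with correction for background, normalization of arrays by quantiles and a summary over the probes of each set. The Transcriptome Analysis Console is the tool listed in the submitters' processing notes. The values are linear, from 3.84 to 29532, and for 100% of those above 100 the log2 is a multiple of 0.01 (tolerance 0.0003), so they had been rounded on the log2 scale. Because quantile normalization sets the arrays to like distributions, a shift shared by most genes would be reduced. Arrays carry no read depth, and their number limits the precision.

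Of 45037 probe sets, 34945 have 1 gene symbol in the array annotation, 932 have several and 9160 none. Symbols were updated through gene identifiers, and each of 18193 genes was represented by its brightest single-gene probe set, judged by mean log2 value on the 6 arrays. Groups were taken from the sample labels. They were compared on log2 values with lmFit and eBayes of limma 3.58.1 under R 4.3.3, without covariates, with Benjamini-Hochberg adjustment over all probe sets and a call at an adjusted p under 0.05. With 3 mice against 3, an exact permutation test cannot go below 0.1, so none was used. The script was tested on simulated data first.

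The members and gene lists were chosen with earlier results of these data known. All members are named, with values in each mouse for those called with a change of at least 2-fold and for the main enzyme or regulator of each step. Values in each mouse were also added for the other called members and for Scd2, Lpin1 and Dgat1 after their values were seen. Of the other genes of the route, the 3 largest rises and falls and 6 fixed regulators or suppliers are named. Cds2, Mogat2 and Acsl6 were added after their values were seen. Alternatives were 2 other scalings, a filter on dim probe sets, other moderation, array weights, other rules for probe sets, a replicate block and each mouse left out. Promoter sequences are from RefSeq (GRCm38.p6). Protein sequences were not used here.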

Additional observations from a re-analysis of the deposited data

How the results depend on the processing

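The lower members numbered 13 to 18 and the higher members 4 to 8 over the alternatives, and the 2 counts that moved by more than 1.5 times did so with no moderation of the variances, where 4 members were higher and 5 other genes of the route were lower. No called member changed sign. Of the 24 called members 15 kept their call under every alternative that gave a value: Acaca, Acacb, Acsl3, Agpat2, Elovl3, Elovl5, Elovl7, Fads1, Fasn, Hacd3, Lpin3, Mlxipl, Scd1, Srebf1 and Thrsp. Acss2, Elovl2, Fads2 and Acsl4 lost it only with no moderation (adjusted p = 0.0762, 0.077, 0.0862 and 0.0735). The cause of these changes was not tested.

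Scaling each array to 1 value of its 75th percentile moved the median change of all probe sets by -0.13, and a second quantile normalization moved it by 0.07. Changes of sign were met only in uncalled members. Under these 2 scalings in turn they were Slc25a1 (-0.083 and -0.106), Tecr (-0.080 and -0.108), Mlx (-0.073 and -0.086) and Lpin2 (-0.047 and -0.064), with Pnpla3 under the first (-0.0065) and Pnpla5 under the second (0.073). Averaging probe sets turned Elovl1 (0.043), Tecr (-0.325) and Lpin2 (-0.16), and leaving out probe sets of shared sequence turned Elovl1 (0.80) and Dgat1 (-0.083). With 1 mouse left out, the ranges were -0.175 to 0.32 for Slc25a1, -0.37 to 0.032 for Elovl1, -0.325 to 0.635 for Tecr, -0.043 to 0.36 for Fads3, -0.065 to 0.135 for Mlx, -0.065 to 0.22 for Lpin2, -0.015 to 0.27 for Pnpla3 and -0.105 to 0.040 for Pnpla5. The changes of Lpin1, Elovl6, Scd2, Agpat3 and Dgat1 kept their sign but moved by more than 1.5 times without some single mouse, with ranges of -1.49 to -0.565 for Lpin1, 0.17 to 0.45 for Agpat3 and 0.17 to 0.35 for Dgat1.

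Mice of both groups carry the numbers 1 to 3 in the labels, which name no pairing. Same-numbered mice deviated together weakly or not at all (r = 0.106, 0.0339 and -0.156), and different-numbered mice reached 0.216 and -0.212. With 3 mice per group these values cannot decide whether the numbers mark a pairing or a batch. With the replicate block 17 members were lower and 7 higher, and 7 and 9 of the other genes of the route. Scd2 was then called (adjusted p = 0.0409) and Acsl5 was not (adjusted p = 0.0613). Brightness limits Pnpla5, with NTBC also Lpin3 and Elovl7, and after withdrawal Elovl3.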
